A study of Mus musculus with 6 samples.

Results

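The 35 genes described here are the interferon and RNA-sensing response genes: the receptors that detect RNA in the endosome or the cytoplasm, the factors that pass the signal on, and antiviral and antigen-processing genes that interferon induces. They were chosen by name, as a fixed list of symbols matched to the gene name of each non-control spot, and that rule uses no measured value. All 35 have at least 1 probe on the array, which carries 37001 gene names in all. The question was whether an injected RNA mimic was accompanied by more of this response than an injected control RNA.

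The samples were 6 teratomas, mixed-tissue tumours grown from mouse embryonic stem cells under the skin of BALB/c Nude mice, 3 given a miR-124a mimic and 3 given a miRNA negative control. All 6 tumours received RNA in the same way: 15 µg in 100 µL, complexed with Atelogen QG and injected into the tumour once every 3 days until day 28, from a size of 100 mm3 at about 10 days after the cells were implanted. The control tumours therefore received RNA and carrier too, and uninjected tumours were not analysed here. Each of the 6 arrays holds RNA from 1 of the 2 pieces of a tumour, with 3 mice per group, and no age is given in the sources used here. Nude mice lack a working thymus and so have few mature T cells, but keep macrophages, natural killer cells and neutrophils.

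Double-stranded RNA in the endosome is detected by TLR3 and single-stranded RNA by TLR7, while RIG-I and MDA5 detect foreign RNA in the cytoplasm. Their signals lead to type I interferon, which acts through a complex that includes STAT2 and IRF9 on a short promoter element, the interferon-stimulated response element (ISRE). Interferon gamma, made mainly by natural killer and T cells, acts instead through a separate element, the gamma-activated site (GAS), and is the stronger inducer of guanylate-binding proteins, immunoproteasome subunits and peptide transporters. Short synthetic RNAs are known to trigger these sensors in some cell types and not in others.

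Promoters of 5 members are printed first, because these genes show the range of signal between tumours that the results turn on. Each is the 200 bases before the RefSeq start (GRCm38.p6), with matches to the ISRE letters (GAAA, then any 2 bases, then GAAA) on either strand in capitals; the choice of genes and motifs was made after the values were seen. Isg15 (chr4:156200819-156201018, minus strand) has 3 overlapping matches, Ifit3 (chr19:34583329-34583528, plus strand) 2, Gbp3 (chr3:142559844-142560043, plus strand) 2 that overlap, Gbp2 (chr3:142620463-142620662, plus strand) 1, and Tap1 (chr17:34187356-34187555, plus strand) 0. Gbp3 has 2 RefSeq starts. The start with more matches is printed, and the window of the other (chr3:142560106-142560405) held 0.
Isg15: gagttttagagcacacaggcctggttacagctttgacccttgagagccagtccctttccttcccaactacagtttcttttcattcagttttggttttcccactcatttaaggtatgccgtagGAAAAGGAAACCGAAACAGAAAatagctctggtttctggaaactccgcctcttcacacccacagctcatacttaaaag
Ifit3: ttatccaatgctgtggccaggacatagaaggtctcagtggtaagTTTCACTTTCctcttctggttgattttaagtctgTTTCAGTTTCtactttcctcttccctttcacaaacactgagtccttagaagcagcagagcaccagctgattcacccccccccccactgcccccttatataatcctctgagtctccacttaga
Gbp2: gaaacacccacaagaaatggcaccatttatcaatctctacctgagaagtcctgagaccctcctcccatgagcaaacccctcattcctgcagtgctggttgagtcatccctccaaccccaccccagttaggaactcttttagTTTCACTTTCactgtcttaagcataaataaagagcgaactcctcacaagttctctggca
Gbp3: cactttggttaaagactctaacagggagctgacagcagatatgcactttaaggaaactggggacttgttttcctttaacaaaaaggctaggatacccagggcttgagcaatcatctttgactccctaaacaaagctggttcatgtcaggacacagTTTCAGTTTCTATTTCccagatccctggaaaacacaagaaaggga
Tap1: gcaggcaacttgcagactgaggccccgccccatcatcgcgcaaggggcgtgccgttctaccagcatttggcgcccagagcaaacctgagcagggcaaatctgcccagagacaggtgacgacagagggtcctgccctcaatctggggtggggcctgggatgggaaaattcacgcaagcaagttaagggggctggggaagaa
Over the whole windows of 250 bases before to 50 after the start, 14 of the 26 members with a promoter in the RefSeq table (53.8%) held an ISRE match, against 1079 of 27025 genes (3.99%) and 3.44% of all 32851 promoters. The GAS letters TTCNNNGAA, searched on both strands, occurred in 7 of the 26 members (26.9%), against 9.55% of genes and 8.30% of promoters. The windows of Psmb9 and Tap1, which lie head to head on chromosome 17, share 275 of their 300 bases. A match is a description of letters, not evidence that a factor binds there.

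The arrays were of even quality, with 35867 to 37286 probes each (63.4% to 65.9%) clear of background and 0 saturated spots. Signals below are relative to the 75th percentile of their array, so that 1 stands for that percentile, and the level of a probe is not comparable with that of another probe. The number of arrays limits the precision. All 3 miR-124a arrays lay in 1 row of the slide and all 3 control arrays in the other, so slide row and treatment cannot be told apart. The tumours held the tissues that a teratoma label implies, with neuronal, muscle and gut markers all measured. miR-124a tumour 3 stood apart from the other 5 in the genes of this report, although over all 22946 genes tested it held the highest signal for only 7.63%. Results that rest on it are therefore given with and without it.

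No member passed limma's test for a difference between miR-124a and control tumours: 0 of 34 members tested passed an adjusted p of 0.05 and 0 had an unadjusted p under 0.05, against 3.18% and 27.1% of all genes. The count past the threshold was also 0 under each of the 15 alternative settings tried. No gene at all passed with a replicate block in the model or with at least 1 of the tumours left out. Those settings therefore say nothing about the members. The authors' table differs from the processed intensity by a constant per array, so it repeats the scaling used here. In the fit as reported, the smallest unadjusted p was 0.156 (Ifit2), and adjusted p-values lay between 0.337 and 0.993. Oas3, whose product is an oligoadenylate synthetase, has a single probe that was not well above background on any of the 6 arrays and was not tested. The other 34 members were well above background on all 6. Of them, 22 had a higher and 12 a lower mean in miR-124a tumours, where 49.9% of all genes had a higher mean. Log2 fold changes ran between -0.32 (Rsad2) and 0.69 (Gbp2) with a median of 0.09, against -0.00072 over all genes tested.

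The intervals leave room for changes in both directions. The standard error of the log2 fold change had a median of 0.284 over the members and 0.139 over all genes on the log2 scale. The wider errors of the members go with the spread among miR-124a tumours given below. The 95% interval lay within a 2-fold change in both directions for 21 of the 34 members. For 12 members it still included a 2-fold higher level in miR-124a tumours, and for 6 a 2-fold lower one. The widest limits were a fold of 0.272 for Rsad2 and 4.66 for Psmb9. In bulk tissue, fewer responding cells and less RNA per cell cannot be told apart, and this holds for every value below.

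**Figure D1:**
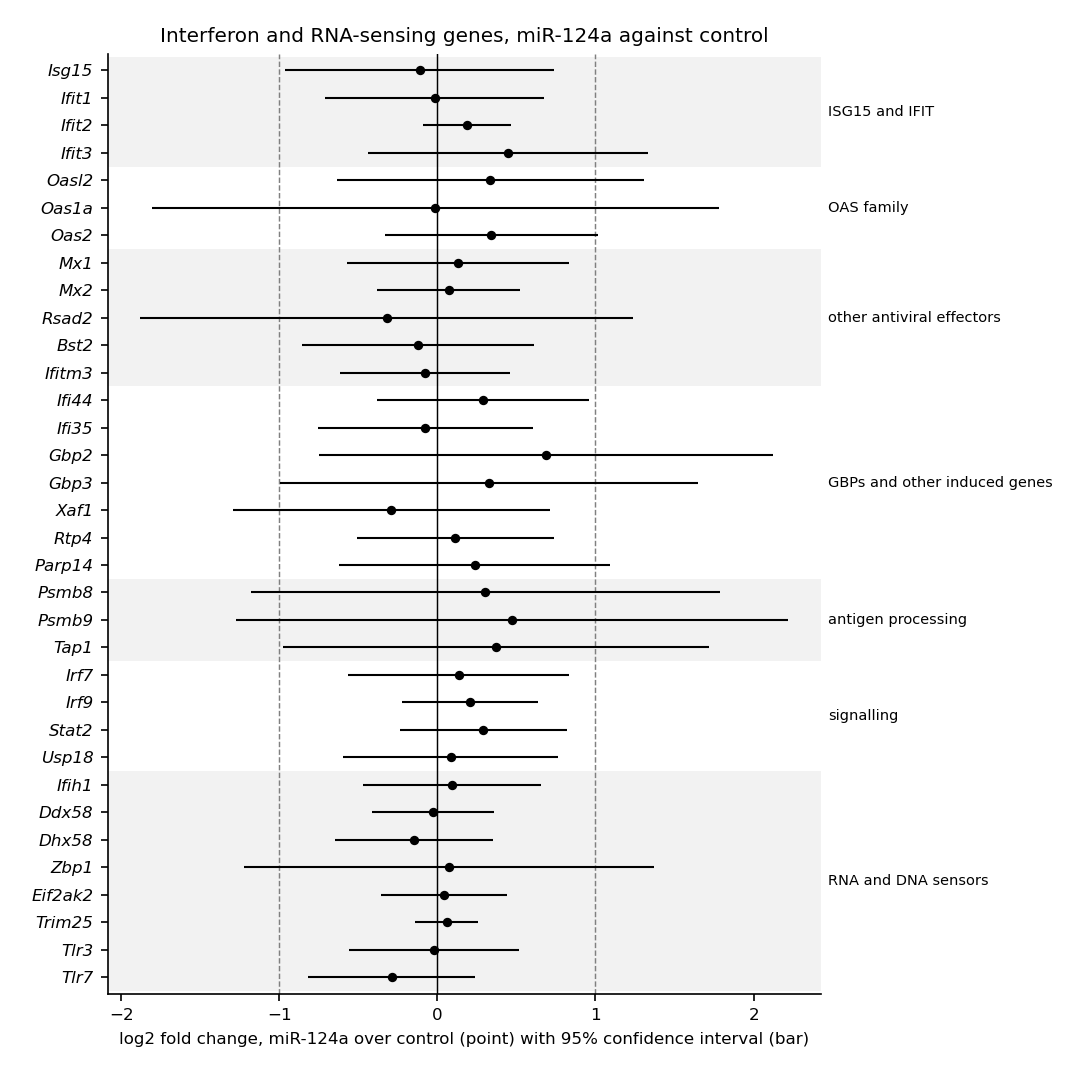
Log2 fold change of each of the 34 members tested, miR-124a over control tumours (point), with its 95% confidence interval from limma (bar, 3 tumours per group); dashed lines mark a 2-fold change in either direction. Every interval includes 0, and the widest belong to Oas1a, Psmb9, Rsad2, Psmb8 and Gbp2.

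The sensors come first in the pathway. Ifih1, which encodes MDA5, had relative signals of 0.320, 0.303 and 0.550 in the miR-124a tumours, against 0.367, 0.337 and 0.354 in the control tumours; its log2 fold change was 0.09 ± 0.23 (SE). Ddx58, which encodes RIG-I, had 0.890, 0.774 and 1.16 in the miR-124a tumours, against 0.959, 0.983 and 0.896 in the control tumours. Eif2ak2 encodes PKR, a kinase that double-stranded RNA activates, and had 0.836, 0.867 and 1.20 in the miR-124a tumours, against 1.03, 0.874 and 0.887 in the control tumours. In all 3 genes, at the brightest tested probe, miR-124a tumour 3 was the highest of the 6 and the other miR-124a tumours lay below all 3 controls. The other tested probe of Ifih1 was highest in miR-124a tumour 1, at 0.0969 beside 0.0366 in tumour 3. It was tested only through the miR-124a group, where it is high. At the other tested probes of Ddx58 tumour 3 was again the highest, but the other miR-124a tumours did not lie below all controls. Zbp1, a sensor of nucleic acids in the Z form, varied most among the sensors, with 0.199, 0.172 and 0.738 in the miR-124a tumours, against 0.283, 0.273 and 0.281 in the control tumours. That is a log2 fold change of 0.07 ± 0.54 (SE), with 1 high tumour and 2 miR-124a tumours below all controls. The endosomal receptors showed no such tumour. Tlr3 had 0.117, 0.0800 and 0.108 in the miR-124a tumours, against 0.124, 0.110 and 0.0778 in the control tumours, and the groups overlapped fully. Tlr7 had 0.245, 0.232 and 0.204 in the miR-124a tumours, against 0.302, 0.351 and 0.200 in the control tumours. Its log2 fold change was -0.29 ± 0.22 (SE), and its highest signals were in control tumours. The other tested probe of Tlr7 gave a difference of 0.018 on the log2 scale. Dhx58 encodes LGP2, a relative of RIG-I without its signalling domain, and had 0.123, 0.0941 and 0.135 in the miR-124a tumours, against 0.164, 0.120 and 0.107 in the control tumours, highest in control tumour 1. Trim25, a ubiquitin ligase that acts on RIG-I, had 17.0, 16.6 and 16.9 in the miR-124a tumours, against 16.5, 15.6 and 16.3 in the control tumours at its brightest probe.

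Trim25 was also the only member whose groups did not overlap, with a log2 fold change of 0.06 ± 0.08 (SE); 15.1% of all genes did not overlap in that direction. Its probes disagreed. The other 2 tested probes gave differences of -0.30 and -0.31 on the log2 scale, so no direction can be given for this gene.

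Of the signalling members, Irf7, the factor that amplifies type I interferon production, had 3.35, 2.86 and 6.0 in the miR-124a tumours, against 3.95, 3.75 and 2.93 in the control tumours. Irf9 and Stat2 encode the partners in that complex named above. Irf9 had 2.28, 2.12 and 3.30 in the miR-124a tumours, against 2.09, 2.30 and 2.17 in the control tumours, and Stat2 had 2.21, 2.27 and 3.56 in the miR-124a tumours, against 2.01, 1.91 and 2.55 in the control tumours. Their log2 fold changes were 0.21 ± 0.18 and 0.29 ± 0.22 (SE), with adjusted p-values of 0.485 and 0.424. Usp18, which removes ISG15 from proteins and restrains the type I receptor, had 0.414, 0.355 and 0.748 in the miR-124a tumours, against 0.434, 0.512 and 0.414 in the control tumours. In all 4 genes miR-124a tumour 3 was above every control tumour. At the brightest tested probe the means were higher in miR-124a tumours, by log2 fold changes of 0.09 to 0.29, none past the threshold. The other tested probe of Irf7 gave a difference of -0.22 on the log2 scale, so no direction can be given for Irf7.

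Among the earliest and strongest interferon-induced genes, Isg15, a ubiquitin-like protein attached to other proteins, had 1.99, 2.08 and 4.78 in the miR-124a tumours, against 2.97, 3.41 and 2.47 in the control tumours. miR-124a tumours 1 and 2 were below all 3 controls and tumour 3 was above them, which gave a log2 fold change of -0.11 ± 0.35 (SE). The IFIT genes encode proteins that bind foreign RNA and block its translation. Ifit1 had 0.165, 0.151 and 0.321 in the miR-124a tumours, against 0.206, 0.214 and 0.189 in the control tumours. Ifit2 had 0.292, 0.245 and 0.308 in the miR-124a tumours, against 0.249, 0.234 and 0.257 in the control tumours. Ifit3 had 0.708, 0.535 and 1.52 in the miR-124a tumours, against 0.598, 0.611 and 0.625 in the control tumours. Ifit2 varied little and Ifit3 was at least 2-fold above the highest control in tumour 3 only, and these genes neighbour each other on chromosome 19. The log2 fold changes were -0.02 ± 0.29 for Ifit1, 0.19 ± 0.12 for Ifit2 and 0.44 ± 0.37 for Ifit3 (SE), and no adjusted p was below 0.337.

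The oligoadenylate synthetases make a second messenger from ATP that activates RNase L when double-stranded RNA is present. Oas1a had 0.431, 0.316 and 1.82 in the miR-124a tumours, against 1.28, 0.454 and 0.439 in the control tumours. It was high in 1 tumour of each group, miR-124a tumour 3 and control tumour 1, and its interval was the widest of all members, a log2 fold change of -0.01 ± 0.74 (SE). Oas2 had 0.578, 0.497 and 0.999 in the miR-124a tumours, against 0.611, 0.524 and 0.440 in the control tumours. Oasl2, a family member with a ubiquitin-like tail, had 1.08, 0.957 and 2.80 in the miR-124a tumours, against 1.24, 1.11 and 1.04 in the control tumours. Both were highest in miR-124a tumour 3, with the other 5 tumours close together.

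Other antiviral effectors act at separate steps of viral growth. Rsad2 encodes viperin, which makes a chain-terminating nucleotide, and had 0.174, 0.198 and 0.861 in the miR-124a tumours, against 0.304, 0.316 and 0.598 in the control tumours. Bst2 encodes tetherin, which holds budding virus at the membrane, and had 1.23, 1.25 and 2.56 in the miR-124a tumours, against 1.88, 1.85 and 1.46 in the control tumours. Ifitm3, which blocks viral entry, had 10.0, 7.64 and 13.6 in the miR-124a tumours, against 11.5, 11.5 and 9.27 in the control tumours. The 3 genes share a pattern of miR-124a tumour 3 highest and at least 1 other miR-124a tumour below all controls, and their log2 fold changes were -0.32 ± 0.64, -0.12 ± 0.30 and -0.08 ± 0.22 (SE). Mx1 and Mx2, GTPases that block viral replication, had log2 fold changes of 0.13 ± 0.29 and 0.07 ± 0.19 (SE). Mx1 had 0.0770, 0.0901 and 0.148 in the miR-124a tumours, against 0.0690, 0.110 and 0.103 in the control tumours, the dimmest of its tumours being control tumour 1.

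The guanylate-binding proteins, GTPases that attack intracellular pathogens, varied more. Gbp2 had 1.24, 0.776 and 4.15 in the miR-124a tumours, against 0.922, 0.841 and 1.23 in the control tumours, the largest log2 fold change of the members at 0.69 ± 0.59 (SE), with an adjusted p of 0.483. Gbp3, its neighbour on chromosome 3, had 1.41, 1.14 and 4.96 in the miR-124a tumours, against 1.70, 1.27 and 1.87 in the control tumours. In both, miR-124a tumour 3 was more than 2-fold above the highest control and the other 5 tumours lay together. Parp14, which adds ADP-ribose to proteins, showed the same in lesser degree, with 0.955, 0.826 and 2.18 in the miR-124a tumours, against 1.05, 0.982 and 1.02 in the control tumours. Xaf1, which promotes cell death, had 1.13, 0.889 and 2.78 in the miR-124a tumours, against 1.47, 1.83 and 1.90 in the control tumours. There the other miR-124a tumours were below all controls, and the log2 fold change was -0.29 ± 0.42 (SE). Ifi44, Ifi35 and Rtp4, interferon-induced genes of less settled function, had log2 fold changes of 0.29 ± 0.28, -0.08 ± 0.28 and 0.11 ± 0.26 (SE), each highest in miR-124a tumour 3.

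Among the antigen-processing members the tumours differed widely, most of all in Psmb9. Psmb8 and Psmb9 encode subunits of the immunoproteasome, and Tap1 encodes part of the pump that carries peptides to class I molecules. Psmb9 had 1.15, 0.843 and 5.75 in the miR-124a tumours, against 1.40, 0.875 and 1.69 in the control tumours. Psmb8 had 1.18, 0.842 and 4.51 in the miR-124a tumours, against 1.55, 1.02 and 1.5 in the control tumours. Tap1 had 0.790, 0.683 and 2.90 in the miR-124a tumours, against 0.811, 0.746 and 1.20 in the control tumours. In each, miR-124a tumour 3 was more than 2-fold above the highest control and miR-124a tumour 2 was the lowest of the 6. The log2 fold changes were 0.47 ± 0.72, 0.30 ± 0.61 and 0.37 ± 0.56 (SE), with adjusted p-values of 0.701, 0.774 and 0.696. These 3 genes lie next to each other in the class II region of chromosome 17, and Psmb9 and Tap1 share the promoter window described above.

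**Figure D2:**
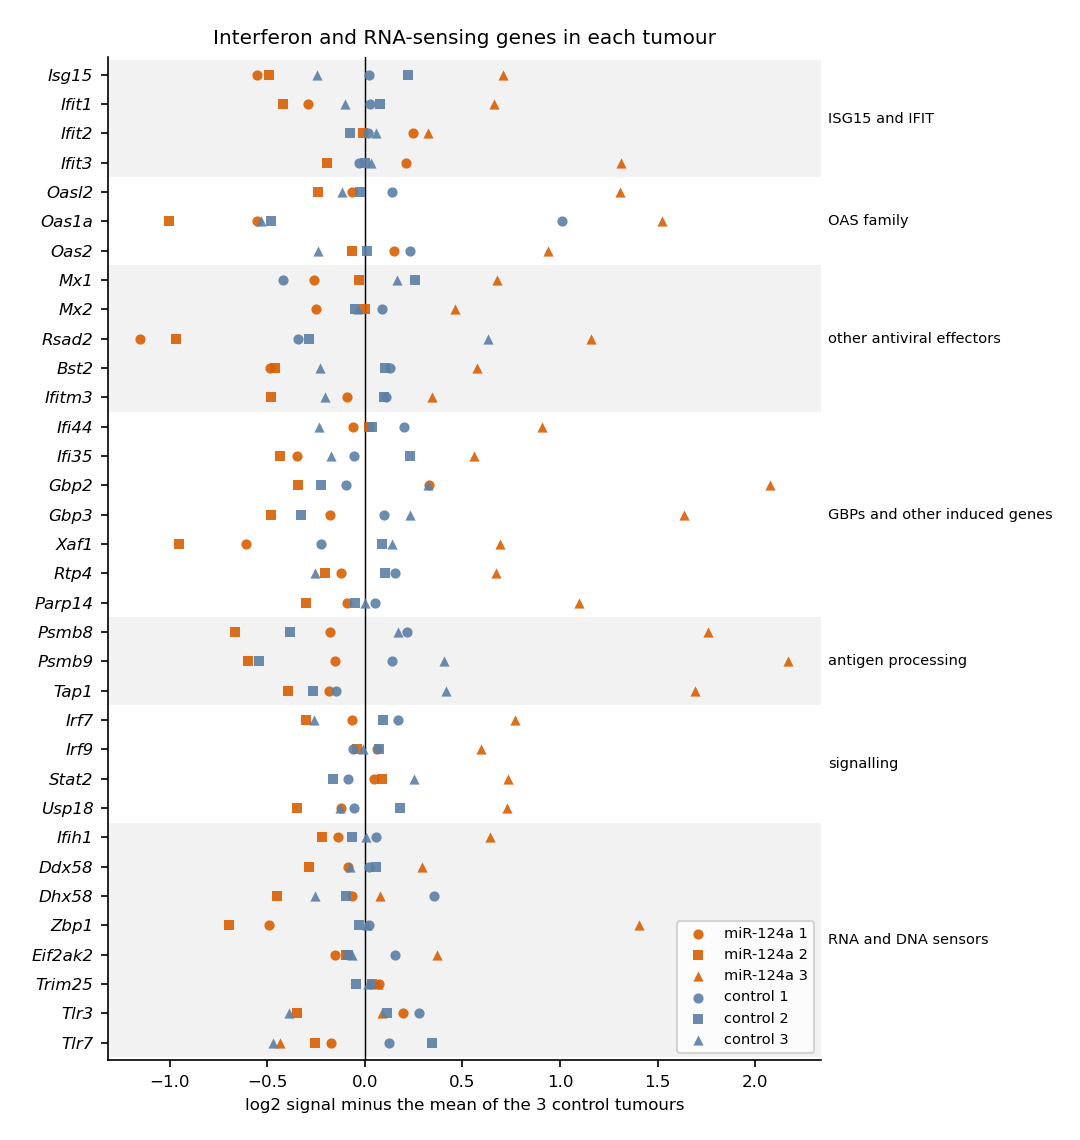
Log2 signal of each of the 34 members tested in each tumour, minus the mean of the 3 control tumours (orange, miR-124a tumours; blue, control tumours; marker shape gives the tumour number), grouped by role. miR-124a tumour 3 is the rightmost point in 30 of the 34 rows, against 7.63% of all genes. miR-124a tumours 1 and 2 lie left of 0 together in 24, a count for which no share over all genes was taken.

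Across roles, 1 tumour held most of the highest signals. miR-124a tumour 3 held the highest of the 6 signals for 30 of the 34 members, against 7.63% of all genes. The exceptions were Trim25, highest in miR-124a tumour 1, Dhx58 and Tlr3, highest in control tumour 1, and Tlr7, highest in control tumour 2; those tumours held the highest signal for 13.3%, 10.3% and 26.4% of all genes. miR-124a tumour 2 and control tumour 3 held it for 0 members, against 24.5% and 17.9% of all genes. miR-124a tumour 3 was above all 3 controls for 31 members, and at least 2-fold above the highest control for 9 (Psmb9, Gbp2, Psmb8, Gbp3, Zbp1, Ifit3, Tap1, Oasl2 and Parp14), against 0.562% of all genes. At the low end, miR-124a tumour 2 was the lowest of the 6 for 19 members, against 19.7% of all genes, and below all controls for 23. miR-124a tumour 1 was the lowest for 5 (15.1% of all genes) and below all controls for 13, and miR-124a tumour 3 was the lowest for 0 (12.3%). Control tumours 1, 2 and 3 were the lowest for 2, 3 and 5 members, against 13.7%, 21.1% and 18.2% of all genes. miR-124a tumours 1 and 2 were both below the control mean for 24 members. No share over all genes was taken for that count or for the counts of 31, 23 and 13, so nothing is read from them. The shares given are descriptions: the tumour was singled out after its values were seen, and the members are not independent of each other.

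As the median over members of the log2 signal minus the control mean, the miR-124a tumours stood at -0.13, -0.32 and 0.70 and the control tumours at 0.05, -0.01 and -0.05. The SD within the group had a median over members of 0.56 among miR-124a tumours and 0.21 among control tumours, on the log2 scale, while over all genes it was 0.14 and 0.18. The SD was larger among miR-124a tumours for 30 of 34 members and for 36.7% of all genes. Of the 11 members with more than 1 tested probe, 8 had tumour 3 highest at every probe, so in these 8 genes the pattern did not rest on a single probe.

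**Figure D3:**
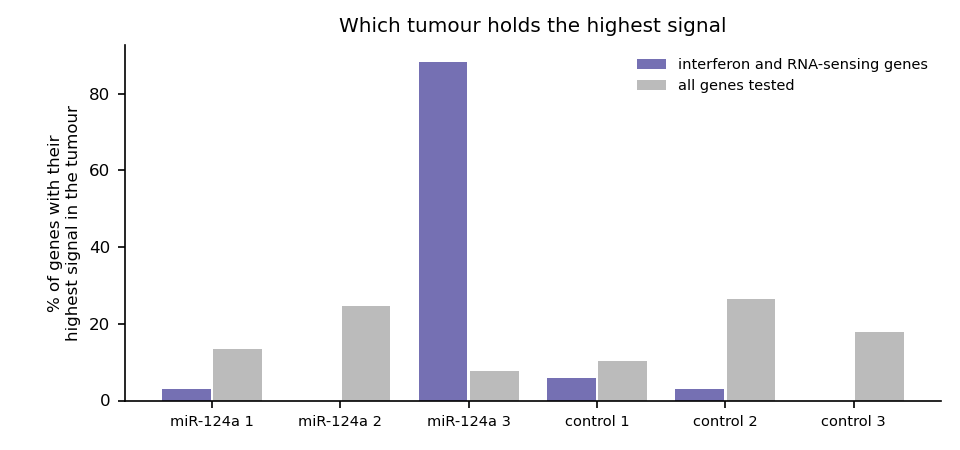
Share of genes whose highest signal of the 6 lies in each tumour, for the 34 members tested (purple) and for all 22946 genes tested (grey), in percent. miR-124a tumour 3 holds 30 of the 34 members and 7.63% of all genes.

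Without miR-124a tumour 3, 28 of the 34 members had a lower mean in miR-124a tumours, against 49.6% of all genes, and the median log2 fold change was -0.19. That tumour was left out after its high values in these members were seen, a choice that by itself lowers their miR-124a mean and spread. It held the highest signal for only 7.63% of all genes, so the shares of all genes here are not a like comparison. The counts are descriptions and nothing is read from them. Again 0 members passed the adjusted threshold, and 6 had an unadjusted p under 0.05, all of them lower, against 21.2% of all genes in either direction and 12.2% lower at that level. These were Zbp1 at -0.59, Xaf1 at -0.78, Rsad2 at -1.06, Isg15 at -0.52, Bst2 at -0.47 and Ifit1 at -0.36 on the log2 scale, with Zbp1 holding the smallest adjusted p of 0.0968 (limma). The direction of the median therefore depends on 1 tumour, and no member passed the threshold with or without it.

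The rest of the pathway was followed in 6 lists of 159 further genes, of which 128 were tested; 1 was higher (Ifna1, described below) and 0 were lower in miR-124a tumours, against 0.501% and 2.68% of all genes. Ifna1 entered the test only through the miR-124a tumours, where it is high, so nothing is read from that count. With only probes well above background on all 6 arrays, 0 genes of the 6 lists passed in either direction. The list closest to interferon gamma had the widest range between tumours of the 6. This list holds guanylate-binding proteins and interferon gamma GTPases, and also Cxcl9, Cxcl11, Ciita, Nos2 and Cd274. Of its 17 genes tested, 0 passed and 16 had a higher mean. In miR-124a tumour 3, 13 were at least 2-fold above the highest control. The median log2 fold change of the 17 was 0.45 with all tumours and -0.27 without tumour 3. Gbp5 had the smallest p of the list, with a log2 fold change of 0.23 ± 0.14 (SE, adjusted p 0.325). Gbp7 had 0.343, 0.214 and 0.750 in the miR-124a tumours, against 0.256, 0.218 and 0.302 in the control tumours. Gbp8 had 0.0674, 0.0599 and 0.374 in the miR-124a tumours, against 0.0594, 0.0183 and 0.134 in the control tumours. Cxcl9, a chemokine that interferon gamma induces and that was named after its values were seen, had 0.203, 0.0435 and 3.38 in the miR-124a tumours, against 0.0809, 0.0286 and 0.455 in the control tumours. Gbp7, Gbp8 and Cxcl9 were each highest in miR-124a tumour 3, and Gbp8 and Cxcl9 were next highest in control tumour 3. Gbp8 and Cxcl9 were well above background in 3 of 3 miR-124a tumours and 2 of 3 control tumours. They were therefore tested only through the miR-124a group, where they are high. Both are among the 16 genes with a higher mean and the 13 at least 2-fold above the highest control, so these counts are descriptions only.

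Class I antigen presentation followed, with 0 of 16 past the threshold, a median of 0.17 (-0.25 without tumour 3) and 8 genes at least 2-fold above the highest control in tumour 3. Pdia3, a chaperone that helps load class I molecules with peptide, had the smallest p and 6.37, 6.15 and 6.59 in the miR-124a tumours, against 7.98, 7.18 and 7.16 in the control tumours. It was lower in all 3 miR-124a tumours than in any control tumour, by a log2 fold change of -0.22 ± 0.09 (SE, adjusted p 0.184) that did not pass. H2-M3, a class I molecule, had 0.574, 0.623 and 1.73 in the miR-124a tumours, against 0.706, 0.538 and 0.668 in the control tumours. H2-K1, a classical class I heavy chain named after its values were seen, had 20.0, 16.7 and 81.6 in the miR-124a tumours, against 24.3, 18.7 and 29.4 in the control tumours. Of 47 further interferon-stimulated genes, 0 passed and the median was 0.04 (-0.15 without tumour 3); 31 were highest in miR-124a tumour 3. Helz2, a helicase that interferon induces, came closest with 0.810, 0.797 and 0.889 in the miR-124a tumours, against 1.18, 1.51 and 1.07 in the control tumours, a log2 fold change of -0.58 ± 0.15 (SE, adjusted p 0.0826). Trim34a followed at 0.54 ± 0.14, Adar, an RNA-editing enzyme, at 0.46 ± 0.12 and Apobec3, a cytidine deaminase, at -0.40 ± 0.12 (SE). For these 4 genes the groups did not overlap, as was so for 15.1% of all genes on the higher side and 20.2% on the lower.

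Upstream of the induced genes, 0 of 18 JAK-STAT and IRF genes passed, with a median of -0.05 (-0.24 without tumour 3), and 7 were highest in tumour 3. Irf3, the first factor that the RNA sensors switch on, had 7.12, 6.53 and 7.51 in the miR-124a tumours, against 8.18, 9.29 and 8.82 in the control tumours, a log2 fold change of -0.31 ± 0.10 (SE, adjusted p 0.121). Of 21 sensor adaptors and kinases 0 passed, with a median of -0.07 (-0.10 without tumour 3), and 5 were highest in tumour 3. Nlrx1, a mitochondrial regulator of the step after RIG-I, had the smallest p, with a log2 fold change of -0.40 ± 0.09 (SE, adjusted p 0.0657). Traf3, a ubiquitin ligase that links the adaptors to the kinase TBK1, came next with 16.8, 19.1 and 16.6 in the miR-124a tumours, against 14.5, 15.7 and 13.4 in the control tumours. Its groups did not overlap and it lay on the higher side, at a log2 fold change of 0.27 ± 0.11 (SE, adjusted p 0.175). Mavs, the adaptor of RIG-I and MDA5, had 1.94, 1.60 and 2.18 in the miR-124a tumours, against 2.16, 2.82 and 2.41 in the control tumours, a log2 fold change of -0.37 ± 0.16 (SE, adjusted p 0.191).

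The interferon genes themselves were at the edge of detection. Of 18 interferon ligand genes on the array, 9 were not well above background in any tumour and 3 were tested. Ifna1 had 0.0807, 0.0847 and 0.0714 in the miR-124a tumours, against 0.0467, 0.0316 and 0.0289 in the control tumours, a log2 fold change of 1.17 ± 0.20 (SE, adjusted p 0.0389). It was well above background in 3 of 3 miR-124a tumours and 1 of 3 control tumours, so it was tested only because of the group in which it is high, and most of the control values behind the fold are not well above background. That call is therefore given as a description and supports nothing. With normexp background correction the log2 fold change was 0.16 and did not pass; nor did it pass with any 1 tumour left out, where adjusted p-values lay between 0.0565 and 0.145. The interferon alpha genes are near-identical copies, and which copies the probe reports was not tested. Of the miR-124a tumours, tumour 3 had the lowest Ifna1 signal. Ifng and Ifnb1, named after their values were seen, were not tested. Ifng had 0.0253, 0.00712 and 0.0768 in the miR-124a tumours, against 0.0160, 0.00855 and 0.0306 in the control tumours, well above background in miR-124a tumour 3 and control tumour 3 only. Ifnb1 was well above background in control tumour 3 only. The receptor genes Ifnar1, Ifnar2 and Ifnlr1 had log2 fold changes of 0.20 ± 0.14, -0.14 ± 0.11 and 0.27 ± 0.19 (SE).

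**Figure D4:**
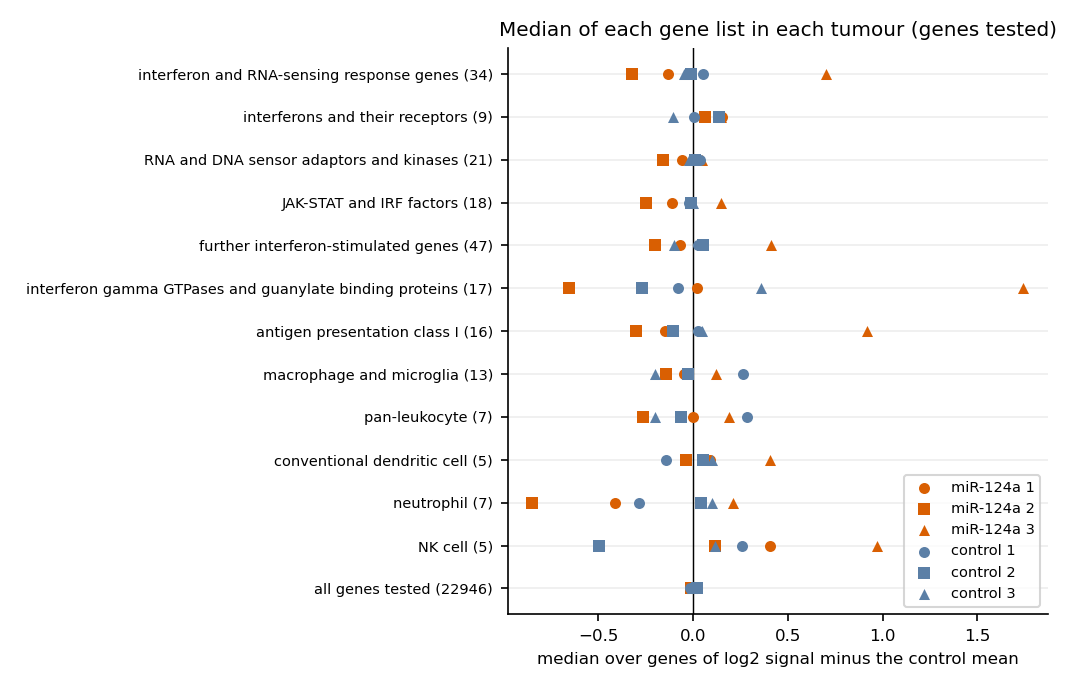
Median, over the genes tested of each list (number in brackets), of log2 signal minus the control mean in each tumour (orange, miR-124a; blue, control; marker shape gives the tumour number). miR-124a tumour 3 stands at 1.74 for the interferon gamma list, 0.92 for class I and 0.70 for the members. Among marker lists it stands at 0.97 for natural killer, 0.41 for conventional dendritic cell, 0.21 for neutrophil, 0.19 for pan-leukocyte and 0.12 for macrophage markers.

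Markers of the host cells that could carry this response were read beside it, and their part in the result was not tested. Of 7 pan-leukocyte markers 0 passed, with tumour medians of -0.00, -0.27 and 0.19 in miR-124a tumours and 0.29, -0.06 and -0.20 in control tumours; their summed relative signal was 18.03 to 21.99 in miR-124a and 15.96 to 22.14 in control tumours. Sums over probes follow the brightest probes and are given only as ranges. Coro1a, an actin-binding protein of leukocytes, had the smallest p, with a log2 fold change of 0.34 ± 0.20 (SE, adjusted p 0.312). Ptprc, which encodes CD45, had 2.55, 2.56 and 2.35 in the miR-124a tumours, against 2.44, 2.18 and 2.28 in the control tumours. Of 13 macrophage and microglia markers 0 passed, with tumour medians of -0.05, -0.14 and 0.12 in miR-124a tumours and 0.26, -0.02 and -0.20 in control tumours. The summed signal was 95.4 to 117 in miR-124a and 96.7 to 129 in control tumours, most of it Lyz2 (lysozyme), which alone had 58.8 to 78.3 in miR-124a and 60.5 to 83.5 in control tumours. Control tumour 1 had the highest median in both lists and miR-124a tumour 3 the next. By gene, miR-124a tumour 3 was the highest of the 6 for 5 of 13 macrophage and 3 of 7 pan-leukocyte markers, against 7.63% of all genes.

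The median of natural killer markers was highest in tumour 3, at 0.41, 0.12 and 0.97 in miR-124a tumours and 0.26, -0.50 and 0.12 in control tumours, from 5 of 8 markers tested, of which 0 passed. Their summed relative signal was 3.68 to 4.49 in miR-124a and 2.37 to 3.87 in control tumours, most of it Klrb1c. Eomes, a transcription factor of natural killer cells that early embryonic cells and neural progenitors also use, had the smallest p and 0.181, 0.216 and 0.187 in the miR-124a tumours, against 0.109, 0.0678 and 0.118 in the control tumours. All 3 miR-124a tumours were above all 3 controls, with a log2 fold change of 1.02 ± 0.22 (SE, adjusted p 0.0653) that did not pass. Klrb1c, a surface receptor, had 2.97, 3.88 and 2.63 in the miR-124a tumours, against 3.02, 2.15 and 1.73 in the control tumours. Prf1, which encodes perforin, had a log2 fold change of 0.13 ± 0.10 (SE). Nkg7, a granule protein, had 0.144, 0.0401 and 0.369 in the miR-124a tumours, against 0.0926, 0.0397 and 0.127 in the control tumours. Eomes and Klrb1c were highest in miR-124a tumour 2, and Nkg7 in miR-124a tumour 3. Ncr1, the marker most specific to these cells, was not well above background throughout either group, nor were Klrd1 and Gzmb, so these 3 were not tested. Conventional dendritic cell markers had a median of 0.41 in miR-124a tumour 3 and -0.14 to 0.10 in control tumours (5 of 7 tested, 0 passed). Their summed signal was 1.008 to 1.53 in miR-124a and 1.07 to 1.22 in control tumours.

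Of 7 neutrophil markers tested 0 passed, with a median log2 fold change of -0.06. Tumour medians were -0.41, -0.85 and 0.21 in miR-124a tumours and -0.28, 0.04 and 0.10 in control tumours, highest in miR-124a tumour 3. Cxcr2, a chemokine receptor, had the smallest p, with 0.0143, 0.0170 and 0.0411 in the miR-124a tumours, against 0.0437, 0.0778 and 0.0647 in the control tumours. It was well above background in 1 of 3 miR-124a and 3 of 3 control tumours, so it was tested only through the controls, where it is high. S100a8 and S100a9 encode the calprotectin subunits. S100a9 had 2.74, 1.25 and 8.43 in the miR-124a tumours, against 5.11, 6.77 and 6.95 in the control tumours, a log2 fold change of -1.02 ± 0.65 (SE), and S100a8 was at -1.11 ± 0.58 (SE). Csf3r, Mpo, Camp and Elane were at 0.13 ± 0.10, 0.16 ± 0.48, 0.01 ± 0.64 and -0.06 ± 0.11 (SE). Without miR-124a tumour 3 the median was -0.52 and 1 marker passed, Cxcr2 at -1.95 (adjusted p 0.0418, limma). That fit tested 23060 genes, and 357 of the 22946 also tested with all tumours passed in either direction. Neither remaining miR-124a tumour was well above background for Cxcr2, so it was again tested only through the controls. That call is given as a description and supports nothing.

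T cell markers were tested for 4 of 8, with Lck higher (a log2 fold change of 0.57 ± 0.09, SE, adjusted p 0.0368), Cd4 at -0.20 ± 0.12 and Cd3e at -0.27 ± 0.18 (SE). Of all genes 0.501% were called higher. Lck was the only 1 of the 4 with a higher mean, the other 3 (Cd4, Cd3e and Cd5) had a lower one, and the list median was -0.23. Without miR-124a tumour 3, Lck was at 0.56 with an adjusted p of 0.104 (limma), and Cd5 was at -0.70, Cd3e at -0.27 and Cd4 at -0.13.

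Markers of other tissues differed between the groups. Of 8 skeletal muscle markers 7 were lower in miR-124a tumours (6 without tumour 3), with a median log2 fold change of -1.64, and of 7 gut and gastric markers 4 were lower (also 4 without tumour 3), with a median of -1.29. Of all genes 2.68% were lower. Without tumour 3, 357 of the 22946 genes also tested with all tumours passed in either direction. In muscle, miR-124a tumour 3 stood at -1.28, beside -1.88 and -1.80 for the other miR-124a tumours, and in gut at -1.04, beside -1.30 and -1.53. Of 8 neuronal markers 0 passed, with a median of 0.44. Their part in the values of the interferon genes was not tested.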

How the data were processed

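RNA of 6 teratomas was hybridised to 1-colour Cy3 Agilent arrays, per the labels' protocols. The deposited scanner files give each spot's intensity, which, per the submitters' processing notes and the file headers, came from Agilent Feature Extraction (version 11.5.1.1) after subtraction of background; it is not scaled between arrays. The authors' deposited value table holds log2 values that equal the log2 processed intensity less a constant per array (SD of the difference 0.0029); its column medians were -2.97, -2.99 and -2.98 for miR-124a 1 to 3 and -2.98, -3.07 and -2.98 for control 1 to 3, it is not centred per gene, its direction is that of signal, and no tool is named for it in the sources used here. Probe positions in the files are on mm9.

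Each array has 62976 spots, of which 59305 are not controls. Spots of a probe were averaged to 56605 probes, less 22 outlier probes. Names came from the RefSeq table by accession (32974 probes), symbol (10227) or older symbol (519), and otherwise from the file (12863). Values are log2 processed intensity less the 75th percentile of the array. Tested probes were those well above background on all 3 arrays of a group (35719), and a gene was read at its brightest tested probe. For the 35 members this left 47 of 60 probes. limma 3.58.1 (lmFit and eBayes, R 4.3.3, no covariate) compared the groups. P-values were adjusted by Benjamini-Hochberg over all 22946 genes, called at 0.05; of these 730 (3.18%) passed, 115 higher and 615 lower. Intervals are 95% intervals of the fit, and p-values measure the spread between arrays of 1 slide, each from 1 piece of a tumour. That spread holds differences between mice and between pieces together, and they cannot be told apart. The fit was tested on simulated data with independent genes and an equal spread in both groups. The members did not have an equal spread, so that test does not cover their pattern.

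The members, lists, markers and alternatives were chosen with earlier results of these data known. The text names all members, any gene of a pathway list past the threshold and otherwise up to 4 with the smallest p per list; other names are said to be chosen after their values were seen. The 15 alternatives were quantile scaling, normexp with an offset of 50, the authors' table, dim probes kept, only probes above background on all 6 arrays, probes averaged per gene, a replicate block, variance trend with robust estimation, array weights and leaving out each of the 6 tumours. Promoters are those of RefSeq on GRCm38.p6. The sequence of the mimic was not analysed here. Figures were drawn with matplotlib 3.10.9.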

Additional observations from a re-analysis of the deposited data

How the results depend on the processing

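The count of members past the threshold was 0 in all 15 alternatives, and their median log2 fold change stayed between -0.19 (without miR-124a tumour 3) and 0.28 (without miR-124a tumour 2). The sign of single members was less stable: 10 of 34 changed sign in an alternative other than leaving out a tumour, 27 when a tumour was left out, and 6 in none. With normexp, Ifit1 was at 0.020 and Tlr3 at 0.0094. With probes averaged per gene, Irf7 was at -0.044, Ddx58 at 0.088 and Trim25 at -0.18. With array weights, Isg15 was at 0.048, Ifit1 at 0.12, Oas1a at 0.13, Rsad2 at 0.040, Ddx58 at 0.045, Ifitm3 at 0.0094 and Ifi35 at 0.070. With 1 tumour left out at a time, the log2 fold change ran over these ranges: Isg15 -0.52 to 0.11, Ifit1 -0.36 to 0.18, Oasl2 -0.15 to 0.62, Oas1a -0.78 to 0.49, Mx1 -0.15 to 0.32, Mx2 -0.12 to 0.23 and Irf7 -0.18 to 0.35. Likewise Usp18 -0.24 to 0.30, Rsad2 -1.06 to 0.095, Ifi44 -0.018 to 0.46, Ifih1 -0.18 to 0.25, Ddx58 -0.19 to 0.10, Dhx58 -0.28 to 0.031 and Bst2 -0.47 to 0.058. The ranges were Ifitm3 -0.29 to 0.13, Ifi35 -0.39 to 0.10, Gbp2 -0.0068 to 1.20, Gbp3 -0.33 to 0.73, Zbp1 -0.59 to 0.46, Xaf1 -0.78 to 0.040 and Rtp4 -0.16 to 0.27. For the last genes they were Parp14 -0.20 to 0.50, Eif2ak2 -0.12 to 0.14, Psmb8 -0.42 to 0.79, Psmb9 -0.38 to 1.01, Tap1 -0.29 to 0.75 and Tlr3 -0.22 to 0.14. Over all genes, 730 passed in the fit as reported, 1538 with normexp, 1588 with a variance trend and robust estimation, 81 of 37001 with dim probes kept, and 0 to 360 with a tumour left out. Of interferons and their receptors, 1 gene (Ifna1) passed as reported and 0 with normexp, with dim probes kept, with only probes above background on all 6 arrays, with the replicate block or with any tumour left out. With normexp, 1 further interferon-stimulated gene (Helz2) passed. Same-numbered tumours did not deviate together (correlations of -0.155, -0.039 and -0.0646 across genes); with the replicate number as a block, 0 of 22946 genes and 0 members passed. The causes were not tested. Signal near background limits Ifna1, Tlr3, Dhx58 and Mx1, and Oas3 gave no value.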
